A study of Mus musculus with 8 samples.

Results

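The cells compared were C3H10T1/2 MSCs (a mouse mesenchymal stem cell line that forms fat cells in adipogenic medium) at day 5 of adipogenic differentiation, in which the histone demethylase KDM4D was depleted by an shRNA (shKDM4D cells) or in which a control shRNA was expressed (shControl cells). Each side was 1 RNA-seq library, and the values were RPKM, the reads of a gene scaled to the length of its exons and to the mapped reads of the library. A gene entered when its RPKM was over 1 in at least 1 of the 2 libraries, which held for 10869 of the 41325 gene symbols listed (26.3%). Of these, 10475 were annotated as protein coding, 10270 were over 1 in both libraries, 386 in shControl cells alone and 213 in shKDM4D cells alone. At the limit, *Tom1l1* entered with an RPKM of 1.0015 as its higher value and *Trmt61a* stayed out with 0.99941.

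The labels give the control line the genotype WT. Knockdown lines were puromycin-resistant clones that carried a pLKO.1 vector with the shRNA, so a line may hold differences of its own besides the shRNA. Confluent cells (day 0) were given insulin, dexamethasone and isobutylmethylxanthine for 2 days, insulin alone for the next 2 days and then medium with serum, and both lines had this treatment before day 5. Day 0 libraries of both lines, and libraries of shNFIB and shMLL1 cells at both days, made up the 8 libraries of the series. With 1 library per condition no difference could be tested, so a gene is called lower or higher when it was past 2-fold on the log2(RPKM + 0.1) scale. The 95% interval beside a ratio reflects the number of reads alone, and variation between cultures or between clones was not measured.

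KDM4D removes methyl groups from lysine 9 of histone H3, a mark of silent chromatin. In the conversion of mesenchymal cells to fat cells, C/EBPβ and the glucocorticoid receptor act first, PPARγ and C/EBPα follow, and these then switch on genes for the uptake, synthesis and storage of fat. Cells that complete this programme also build up mitochondria and secrete hormones such as adiponectin and resistin.

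*Kdm4d* itself (chromosome 9 of GRCm38, from 14462548 to 14500482) was below the limit of expression in both libraries. It had an RPKM of 0.235 (13 reads) in shControl cells and 0.0647 (4 reads) in shKDM4D cells at day 5. The day 5 ratio on the log2 scale was -1.02 with a 95% interval from -1.70 to -0.10, so the targeted gene was lower but was covered by few reads. At day 0 it had 2 reads in shControl and 1 in shKDM4D cells, a log2 ratio of -0.10 (-0.47 to 0.52). At day 5 its RPKM was also below that of shControl cells in shNFIB (0.154) and shMLL1 cells (0.138). The 18 members that encode other KDM4 enzymes, other H3K9 demethylases, H3K9 methyltransferases and their readers held 0 lower and 0 higher genes, with a median log2 ratio of 0.07. The 2 libraries had about 19300000 (shControl) and 21600000 (shKDM4D) mapped reads, within the range of 15800000 to 38200000 of the 8 libraries, and 3 reads on a gene with 1 kb of exons were worth an RPKM of 0.155 and 0.139. Among defining markers of other cell types, the macrophage genes *Adgre1*, *Ptprc* and *Tyrobp*, the epithelial gene *Epcam*, the muscle gene *Myod1* and the neural gene *Sox10* were at 0 in both libraries. The endothelial gene *Pecam1* was at 0.0332 and 0. Expressed members of these lists were mostly higher in value in shKDM4D cells. The epithelial *Cdh1* was at 0.430 and 1.03 (log2 ratio 1.09), the endothelial *Tek* at 0.626 and 1.24 (0.88) and the neural *Map2* at 5.47 and 8.84 (0.68). Of the 2 expressed macrophage genes, *Cd14* was at 3.06 and 4.03 (0.39) and *Cd68* at 1.23 and 0.846 (-0.50). The interval of *Cd68*, from -1.26 to 0.26, held 0. Their part in the results was not tested. The summed RPKM of the 10 macrophage markers was 5.08 in shControl and 5.89 in shKDM4D cells, and that of the 10 mesenchymal markers 1960 and 2341.

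Of the 10869 genes, 390 (3.59%) were lower and 140 (1.29%) were higher in shKDM4D than in shControl cells at day 5, together 4.88%. The median log2 ratio of all genes was 0.01, and 5% of the genes were below -0.77 and 5% above 0.55. The excess of lower genes grew with the size of the difference. Past 4-fold, 149 genes were lower and 24 higher, past 8-fold 76 and 9, and past 16-fold 26 and 1. It also grew with expression. Among the 463 genes with an RPKM of at least 100 in one of the libraries, 12 were lower and 1 was higher. The lower genes together had an RPKM of 6067 in shControl and 1538 in shKDM4D cells, while the higher genes had 383 and 1093. Counting error was small beside most of these differences, and the interval lay wholly on one side of 0 for 381 of the lower and 132 of the higher genes. It lay wholly beyond 2-fold for 246 and 59 of them.

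**Figure D1:**
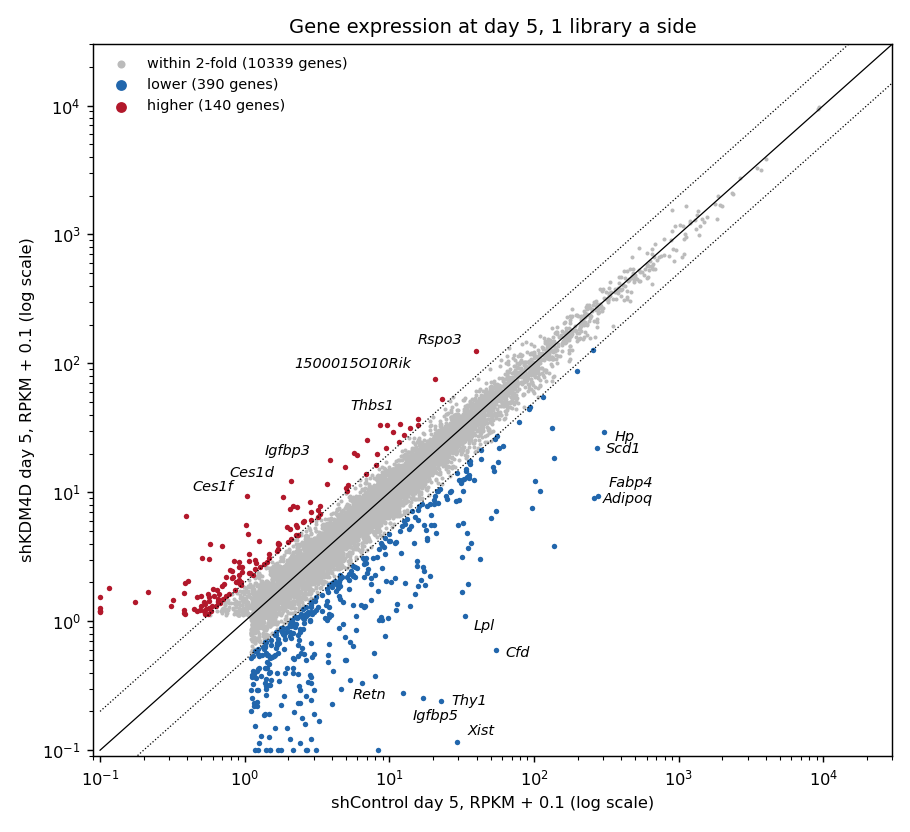
RPKM + 0.1 of each of the 10869 genes in the shControl (x axis) and shKDM4D (y axis) library at day 5, both on log scales, with lines for equality (solid) and 2-fold differences (dotted). The 390 lower genes (blue) reach high expression, for example *Fabp4*, *Adipoq*, *Scd1* and *Hp*, while of the 140 higher genes (red) only *Rspo3* is over an RPKM of 100.

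Among genes with an RPKM of at least 10, the 15 with the lowest ratios were *Xist*, *Thy1* and 13 others, most of them genes of fat cells. *Xist* and *Thy1* were also past 2-fold lower at day 0, and so were *Fabp4* (log2 ratio -1.37) and *Scd1* (-1.03). Of the 10 adipocyte markers, 9 were expressed and all 9 were lower in shKDM4D cells, with a median log2 ratio of -4.83 beside 0.01 for all genes. The tenth, *Lep*, was at 0 in both lines and days. The summed RPKM of the 10 was 1.42 in shControl and 0.845 in shKDM4D cells at day 0, and 795 and 27.7 at day 5. The markers were thus present in shKDM4D cells at day 5 above their day 0 level, and far below that of shControl cells. In bulk RNA, fewer cells that became adipocytes and less RNA of these genes per cell cannot be told apart.

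Fat cells release hormones and blood proteins, and 7 of the 13 expressed adipokine genes were lower and 0 higher (median -1.16). *Retn*, which encodes resistin, had an RPKM of 0 and 12.4 in shControl cells at day 0 and day 5, and of 0.0324 and 0.176 in shKDM4D cells. Its log2 ratio at day 5 was -5.50 (-6.26 to -4.68). *Agt*, which encodes the precursor of angiotensin, was at 0.0397 and 96.4 in shControl cells at day 0 and day 5, and at 0 and 7.41 in shKDM4D cells, a log2 ratio of -3.68 (-3.86 to -3.52). *Cfd*, the gene of complement factor D, was at 54.6 in shControl and 0.502 in shKDM4D cells at day 5. For these genes the 2 lines were alike at day 0 and far apart at day 5. Gene lists overlap, so a gene can be counted more than once. *Adipoq*, *Retn* and *Cfd* are also adipocyte markers, and *Cfd* is also in the acute-phase list. Of the adipocyte markers, *Plin1* and *Cidec* are also in the lipid droplet list, *Fabp4* in that of fatty acid uptake and *Slc2a4* in that of glycolysis.

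Transcription factors differed less than the fat cell markers. Of 19 expressed factors that promote adipogenesis, 4 were lower and 0 higher, and the median was -0.07. The 4 were *Pparg*, *Cebpa*, *Klf15* and *Nr1h3*, of which the last 2 were named after their values were seen. *Pparg* had an RPKM of 21.7 in shControl and 8.21 in shKDM4D cells at day 5 (log2 ratio -1.39), and *Cebpa* 14.0 and 5.42 (-1.35), so that both lost less than the median adipocyte marker. *Nr1h3*, which encodes the sterol sensor LXRα, was at 2.63 and 0.239, a log2 ratio of -3.01. *Cebpb*, which acts early in the programme, was not lower (49.3 and 65.9, log2 ratio 0.42). The 22 expressed factors that hold back adipogenesis held 0 lower and 0 higher genes. Among them *Hes1* (0.60), *Runx2* (0.49) and *Sox9* (0.49) had log2 ratios above 0 and within 2-fold.

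**Figure D2:**
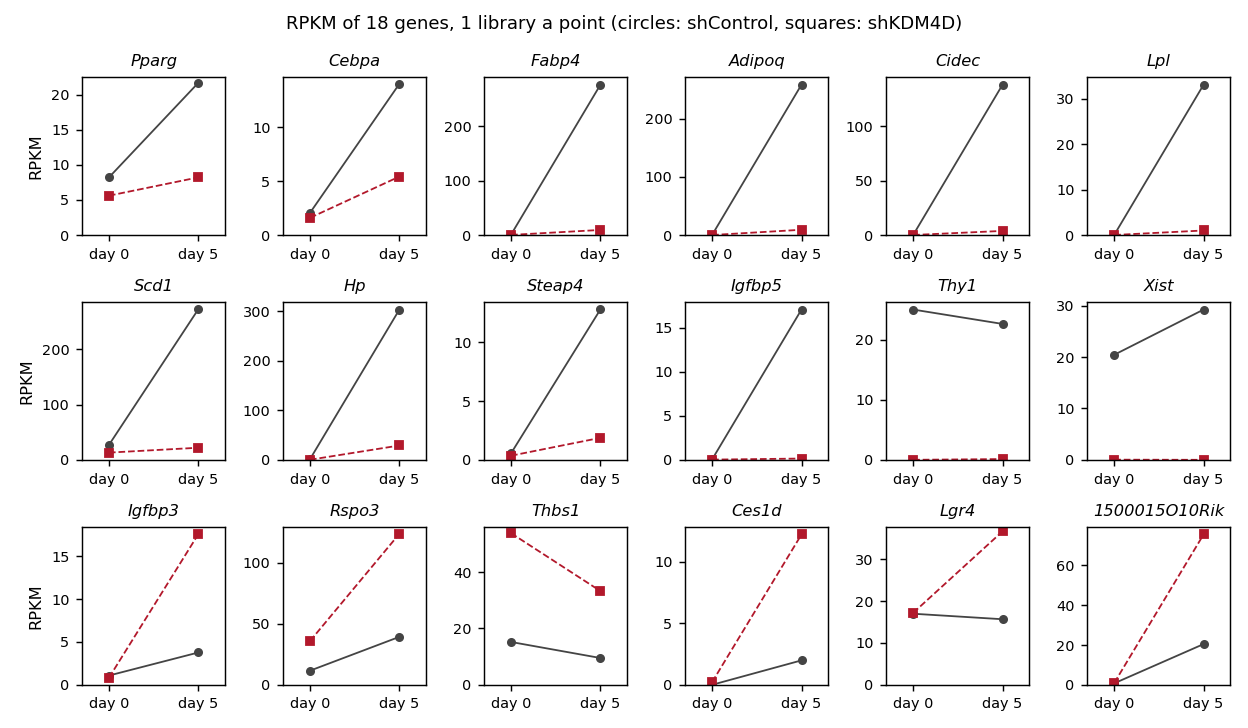
RPKM (y axis, linear and from 0, a scale of its own for each gene) of 18 genes at day 0 and day 5 in shControl (circles, solid line) and shKDM4D cells (squares, broken line), 1 library a point. The fat cell genes are much higher at day 5 than at day 0 in shControl cells and less so in shKDM4D cells, *Thy1* and *Xist* are near 0 in shKDM4D cells at both days, and *Igfbp3*, *Rspo3*, *Ces1d*, *Lgr4* and *1500015O10Rik* reach higher values in shKDM4D cells.

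Sequence upstream of the transcription start was compared next, because C/EBP proteins bind a short motif that can be looked for directly. The RefSeq promoter table (GRCm38.p6) held 8445 of the 10869 genes, including 247 lower and 83 higher ones. The letters TTGCNNAA, or TTNNGCAA on the other strand, were searched in the 250 bases before each listed start. They occurred for 743 genes (8.80%), for 28 of the lower genes (11.3%) and for 7 of the higher genes (8.43%). They occurred for 2 of 6 adipocyte markers and for 9 of 13 acute-phase and complement genes. The motif preceded 6 lower genes of these lists, and also *Pparg*. The stretches of all of them but *Saa3* are shown, each written 5′ to 3′ on the strand of its gene and ending at the base before the start, with the motif in capitals.
Plin1 (chr7:79732777-79733026, minus strand): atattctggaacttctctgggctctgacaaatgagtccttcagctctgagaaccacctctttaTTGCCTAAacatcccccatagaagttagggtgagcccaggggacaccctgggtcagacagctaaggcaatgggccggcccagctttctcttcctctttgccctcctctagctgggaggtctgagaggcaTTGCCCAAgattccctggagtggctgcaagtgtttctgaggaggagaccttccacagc
Cidec (chr6:113434765-113435014, minus strand): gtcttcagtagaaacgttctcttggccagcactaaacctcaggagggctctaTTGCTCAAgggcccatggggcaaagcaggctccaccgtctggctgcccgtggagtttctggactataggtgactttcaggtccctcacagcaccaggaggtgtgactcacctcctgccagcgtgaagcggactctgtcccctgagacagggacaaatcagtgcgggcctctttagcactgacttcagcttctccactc
Pparg (chr6:115421816-115422065, plus strand): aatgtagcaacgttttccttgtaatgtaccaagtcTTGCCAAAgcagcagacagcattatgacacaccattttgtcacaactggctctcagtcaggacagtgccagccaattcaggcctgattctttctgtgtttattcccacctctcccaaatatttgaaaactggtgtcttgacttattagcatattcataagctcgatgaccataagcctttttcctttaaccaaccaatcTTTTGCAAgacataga
Steap4 (chr5:7960222-7960471, plus strand): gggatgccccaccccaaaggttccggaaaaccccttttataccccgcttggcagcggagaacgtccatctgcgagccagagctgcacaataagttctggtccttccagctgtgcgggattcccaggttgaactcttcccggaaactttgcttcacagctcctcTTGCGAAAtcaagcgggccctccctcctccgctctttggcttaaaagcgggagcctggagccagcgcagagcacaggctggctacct
Orm2 (chr4:63362199-63362448, plus strand): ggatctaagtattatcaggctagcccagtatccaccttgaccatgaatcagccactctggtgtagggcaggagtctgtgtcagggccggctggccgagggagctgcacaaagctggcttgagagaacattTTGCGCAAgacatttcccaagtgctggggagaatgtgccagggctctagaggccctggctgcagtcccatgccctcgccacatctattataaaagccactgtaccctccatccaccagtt
Cp (chr3:19956999-19957248, plus strand): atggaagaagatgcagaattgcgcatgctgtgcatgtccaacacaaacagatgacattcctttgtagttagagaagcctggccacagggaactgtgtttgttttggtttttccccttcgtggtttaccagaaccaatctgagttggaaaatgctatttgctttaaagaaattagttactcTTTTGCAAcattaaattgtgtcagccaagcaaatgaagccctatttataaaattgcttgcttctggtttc

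In *Pparg*, the stretch lies before the most downstream of the 3 listed starts and holds the motif 2 times, from bases -215 and -16 counted back from the start. *Plin1*, a coat protein of the lipid droplet, holds it from bases -187 and -58. *Cidec*, which fuses droplets, holds 1 match. A match of these letters is a description of the sequence and not a binding site. *Adipoq*, *Retn* and *Cfd*, with log2 ratios of -4.83, -5.50 and -6.51, had no match in this window.

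Lists of fat uptake, synthesis and storage each held lower genes and no higher ones, while most of their members were within 2-fold. Of 12 expressed genes for uptake and activation of fatty acids, 4 were lower and 0 higher, and 8 were below 0. The median was -0.50, and -0.20 when an RPKM over 5 was required. *Acsl1*, which couples fatty acids to coenzyme A, was at an RPKM of 2.69 in both lines at day 0. At day 5 it was at 36.4 in shControl cells and at 3.95 in shKDM4D cells, a log2 ratio of -3.17 (-3.27 to -3.08). *Fabp5*, a fatty acid carrier, was at 24.95 and 35.0 in shControl cells and at 10.3 and 3.63 in shKDM4D cells at day 0 and day 5, so that shKDM4D cells were already lower at day 0. The other lower members were *Fabp4* and the fatty acid transporter *Cd36* (4.84 and 0.399 at day 5, log2 ratio -3.31), which was named after its values were seen.

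Synthesis of fatty acids and triglycerides had 10 lower and 0 higher genes of 30 (median -0.40). *Scd1*, the desaturase that makes oleate, was at an RPKM of 27.0 and 272 in shControl cells at day 0 and day 5 and at 13.2 and 21.99 in shKDM4D cells. Its log2 ratio at day 5 was -3.62 (-3.68 to -3.56). The enzymes that build glycerolipids were lower by similar amounts, with *Gpat3* at 14.8 and 1.52 (-3.21) and *Agpat2* at 50.5 and 6.17 (-3.01) at day 5. *Gpd1*, which supplies glycerol 3-phosphate, was at 31.8 and 1.58 (-4.25). The difference was smaller for *Fasn*, the fatty acid synthase (named after its values were seen), which was at 31.2 and 11.7, a log2 ratio of -1.41.

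Lipid droplet genes had 4 lower and 0 higher of 16 (median -0.44). Besides *Plin1* and *Cidec*, these were *G0s2*, an inhibitor of lipolysis (32.8 and 12.7 at day 5, log2 ratio -1.36), and *Fitm2*, which helps droplets to form (6.74 and 2.74, -1.27). The lipase list was the one that split. Of its 16 expressed members 8 were lower and 2 were higher, with a median of -0.83 (-0.50 with an RPKM over 5). *Pnpla2*, which encodes the adipose triglyceride lipase ATGL, was at 109 in shControl and 10.2 in shKDM4D cells at day 5, a log2 ratio of -3.40 (-3.52 to -3.29), and *Lpl*, lipoprotein lipase, at 33.1 and 0.998 (-4.92). The 2 higher members were the neighbouring carboxylesterase genes *Ces1d* and *Ces1f* on chromosome 8. *Ces1d* was at 0 and 1.99 in shControl cells at day 0 and day 5 and at 0.216 and 12.2 in shKDM4D cells, a log2 ratio of 2.56 (2.25 to 2.88) at day 5. *Ces1f* was at 0 and 0.929 in shControl cells and at 0.203 and 9.21 in shKDM4D cells (3.18, 2.82 to 3.55). Carboxylesterases of this family are similar in sequence, and how reads were divided among them was not analysed here.

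**Figure D3:**
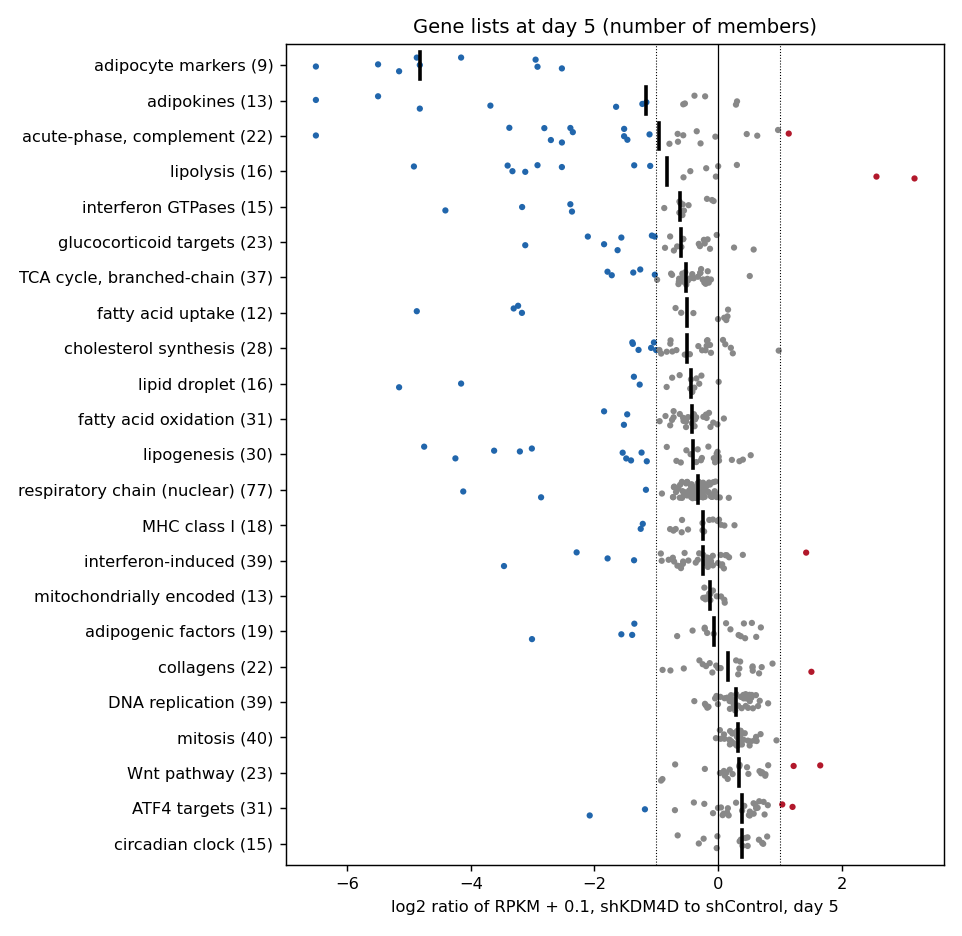
Log2 ratio of RPKM + 0.1 of shKDM4D to shControl cells at day 5 (x axis) for the expressed members of 23 gene lists, 1 point a gene, with a black bar at the list median and dotted lines at 2-fold. The lists are ordered by median from adipocyte markers (-4.83) to the circadian clock (0.39). Points past 2-fold are blue (lower) or red (higher).

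Mitochondrial genes differed by small amounts, but nearly all in one direction. Of 31 expressed genes of fatty acid oxidation 3 were lower and 0 higher, and 30 had a log2 ratio below 0 (median -0.42). Of 77 nuclear genes of the respiratory chain and ATP synthase 3 were lower (3.90%, close to the 3.59% of all genes), and 75 were below 0 (median -0.33). The 3 were *Cox4i1* (198 in shControl and 87.9 in shKDM4D cells, log2 ratio -1.17) and the muscle and brown fat isoforms *Cox7a1* (-2.86) and *Cox8b* (-4.12). The latter 2 were named after their values were seen. Both were below an RPKM of 5 in both libraries, so their ratios rest on low values. The 13 protein genes of the mitochondrial genome held 0 lower and 0 higher genes, 10 were below 0, 9 of them with the interval, and the median was -0.13. Enzymes of the TCA cycle and of branched-chain amino acid breakdown were lower in 5 of 37 cases and below 0 in 36 (median -0.51). *Pcx*, pyruvate carboxylase, was at 3.53 and 56.3 in shControl cells at day 0 and day 5 and at 3.95 and 17.0 in shKDM4D cells (-1.72 at day 5). *Bcat2*, the first enzyme of branched-chain amino acid breakdown, was at 30.1 and 8.65 at day 5 (-1.79). Over all genes 5% were below -0.77, and most members of these lists lay above that value.

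Sterol genes behaved otherwise, in that they were lower before differentiation too. Of 28 expressed genes of cholesterol synthesis and transport 6 were lower and 0 higher at day 5, with a median of -0.50, and the median of the same genes at day 0 was -0.58. *Fdps*, which makes farnesyl diphosphate, was at an RPKM of 24.6 and 5.66 in shControl cells and at 11.3 and 2.10 in shKDM4D cells at day 0 and day 5. The log2 ratio was -1.12 at day 0 and -1.39 at day 5. Export genes of the list went both ways. *Abca1* was lower (26.5 and 10.1 at day 5, -1.38), and *Abcg1* was higher in value by almost 2-fold (4.95 and 9.86, log2 ratio 0.98).

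Acute-phase and complement proteins, which liver and fat cells secrete in inflammation, had 11 lower and 1 higher gene of 22 (median -0.95). *Hp*, haptoglobin, was at an RPKM of 304 in shControl and 29.2 in shKDM4D cells at day 5. *Orm1*, orosomucoid, was at 0 in both lines at day 0 and at 34.1 and 4.78 at day 5, a log2 ratio of -2.81 (-3.16 to -2.47). *Steap4*, a metalloreductase, was at 12.8 and 1.88 (-2.71, -2.97 to -2.44). The higher gene was *Serping1*, the C1 inhibitor (5.07 and 11.3, 1.14), named after its values were seen. Of the 9 genes of this list with the C/EBP motif, *Cp*, *Orm2*, *Saa3* and *Steap4* were lower, whereas *Ptx3* (0.97) and *Serpina3f* (0.63) were above 0, so the motif occurred upstream of genes of both directions. Named after their values were seen, *Cp* was at 35.6 and 12.8 and *Orm2* at 7.41 and 1.37.

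Both lines had received dexamethasone. Of 23 expressed glucocorticoid-responsive genes 7 were lower and 0 higher (median -0.59, beside 0.00 at day 0). *Fkbp5*, a chaperone that binds the glucocorticoid receptor, was at an RPKM of 4.90 and 17.1 in shControl cells at day 0 and day 5 and at 4.03 and 5.48 in shKDM4D cells. Its log2 ratio at day 5 was -1.63 (-1.72 to -1.53). *Sgk1*, a kinase, was at 5.79 and 9.84 in shControl cells and at 7.68 and 4.63 in shKDM4D cells (-1.07). *Pdk4*, which blocks pyruvate oxidation, was at 11.99 and 3.27 at day 5 (-1.84). *Pdk4* and *Angptl4* are also in the fat metabolism lists.

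Interferon-inducible genes were lower in part of the list and more so at day 0 than at day 5. Of 15 interferon-inducible GTPases 4 were lower and 0 higher at day 5, 7 were lower at day 0, and the median was -0.61 at day 5 and -0.98 at day 0. *Gbp9*, a guanylate-binding protein, was at an RPKM of 1.27 and 6.72 in shControl cells and at 0.168 and 1.23 in shKDM4D cells at day 0 and day 5 (-2.36 at day 5, -2.62 to -2.11). Among 39 other interferon-stimulated genes 4 were lower and 1 higher at day 5, and 15 were lower at day 0. *Ifi27l2a* was at 6.57 and 19.2 in shControl cells and at 0.663 and 5.50 in shKDM4D cells (-1.79 at day 5, -2.25 to -1.35). In the NFIB and MLL1 knockdowns the same gene was at 225 and 558 at day 5, on the other side of shControl cells. MHC class I genes had 2 lower and 0 higher of 18 (median -0.25), with *H2-Q4* at 20.3 and 8.66 (-1.22). Among 15 chemokines, cytokines and receptors 4 were lower, led in expression by *Ccl9* (35.7 and 13.6, -1.39), while the neutrophil chemokine *Cxcl5* was at 94.7 and 142 (0.58).

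Proteins that bind insulin-like growth factors gave some of the widest contrasts, in opposite directions. *Igfbp5* (chromosome 1) was at an RPKM of 0.0500 and 17.1 in shControl cells at day 0 and day 5 and at 0.0341 and 0.154 in shKDM4D cells, a log2 ratio of -6.08 (-6.47 to -5.66). *Igfbp3* (chromosome 11) was at 1.08 and 3.77 in shControl cells and at 0.818 and 17.6 in shKDM4D cells, a log2 ratio of 2.19 (1.99 to 2.40). Neither gene differed past 2-fold at day 0 (-0.16 and -0.36). *Irs1*, a substrate of the insulin receptor, was at 13.7 and 31.3 at day 5 (1.18). Over the whole list of insulin and IGF signalling, 4 of 26 genes were lower and 2 higher, with a median of -0.15.

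The higher genes were fewer and mostly of low expression, with 26 of the 140 at an RPKM of at least 10 in one of the libraries. *Rspo3*, which encodes an R-spondin that strengthens Wnt signalling, was the only gene higher past 2-fold with an RPKM over 100. It was at 11.6 and 39.4 in shControl cells and at 35.9 and 124 in shKDM4D cells at day 0 and day 5, and the log2 ratio was 1.62 and 1.65. *Lgr4*, a receptor of R-spondins, was alike at day 0 (17.0 and 17.2) and at 15.7 and 36.7 at day 5 (1.22, 1.14 to 1.30). Of 23 expressed Wnt pathway genes 0 were lower and 2 higher, with 4 below 0 and a median of 0.34. The inhibitor *Sfrp1* was at 5.12 and 2.70 (-0.90).

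*1500015O10Rik*, known as *Ecrg4* and encoding a secreted peptide precursor, was at an RPKM of 0.749 and 20.5 in shControl cells and at 0.908 and 75.6 in shKDM4D cells at day 0 and day 5 (1.88 at day 5, 1.71 to 2.05). *Stc1*, the hormone stanniocalcin, was at 3.59 and 11.6 at day 5 (1.66), and was already past 2-fold higher at day 0 (2.22). *Tnfrsf21*, a death domain receptor, was at 5.88 and 19.3 (1.70, beside -0.23 at day 0). *Iqgap2*, a scaffold of the cytoskeleton, was at 8.49 and 32.9 at day 5 (1.94), and was also past 2-fold higher at day 0 (1.34). *Aff3*, a nuclear protein, was at 4.85 and 15.7 (1.68, beside 0.42 at day 0). In both lines these genes had higher values at day 5 than at day 0.

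Ligands, receptors and targets of the TGF-β and BMP pathways were mostly within 2-fold. *Tgfb2*, a TGF-β ligand, was at an RPKM of 6.81 and 13.8 at day 5 (1.01). Over the list, 1 of 31 genes was lower and 2 were higher, with a median of 0.19.

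Matrix genes were divided. Of 39 matrix proteins other than collagens 4 were lower and 4 higher (median 0.05). *Dcn*, the proteoglycan decorin, was at an RPKM of 3.72 and 31.8 in shControl cells and at 0.693 and 3.03 in shKDM4D cells, a log2 ratio of -3.35 (-3.50 to -3.20) at day 5. *Lum*, lumican, of the same family, was at 5.47 and 1.25 (-2.05). *Thbs1*, thrombospondin 1, was at 15.2 and 9.52 in shControl cells and at 53.9 and 33.3 in shKDM4D cells, higher by a log2 ratio of 1.82 at day 0 and 1.80 at day 5. *Has2*, a hyaluronan synthase, was at 3.21 and 7.66 at day 5 (1.23), after a log2 ratio of 1.48 at day 0. Of 22 expressed collagens only *Col23a1* was past 2-fold at day 5 (11.7 and 33.6, 1.51), and its log2 ratio at day 0 was 1.40. The abundant *Col1a1* was at 688 and 842 (0.29), and *Col3a1* at 535 and 787 (0.56). In contrast *Col6a3* was at 137 and 80.0, a log2 ratio of -0.77 at day 5 after 0.83 at day 0.

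Cell cycle genes differed by less than 2-fold but together. Of 40 mitotic genes 0 were lower and 0 higher, 1 was below 0 and the interval lay above 0 for 35, with a median of 0.32. The median of the same genes at day 0 was 0.62. *Plk1*, the mitotic kinase, was at an RPKM of 24.9 and 8.45 in shControl cells and at 49.9 and 13.1 in shKDM4D cells at day 0 and day 5 (0.62 at day 5). DNA replication genes had a median of 0.29 at day 5 and 0.12 at day 0, with *Mcm4* at 22.3 and 35.7 (0.67). Genes of the ATF4 programme, which answers to a lack of amino acids, had 2 lower and 2 higher genes of 31 and a median of 0.39. The higher genes were *Chac1*, which breaks down glutathione (2.43 and 5.74, 1.20), and the pseudokinase *Trib3* (3.21 and 6.71, 1.04). The lower genes were the alanine transaminase *Gpt2* (17.997 and 4.19, -2.08) and the glutamine transporter *Slc1a5* (8.79 and 3.81, -1.18). Lysosomal genes, with a median of -0.07, had 0 lower and 0 higher genes of 36.

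Ranked by the difference in RPKM itself, other genes came first. The widest gains were those of *Nov* (895 and 1556 at day 5) and *Ptn* (1126 and 1660), both genes of secreted growth regulators. At day 0 both genes were lower in value in shKDM4D cells (*Nov*, log2 ratio -0.76; *Ptn*, -0.24). Their log2 ratios of 0.80 and 0.56 at day 5 were within 2-fold. The 10 largest losses were led by *mt-Co1* (3709 and 3179), a subunit of cytochrome oxidase, and *Rpl17* (1847 and 1327), a ribosomal protein. They also held *Bsg*, which encodes the surface protein basigin (1046 and 668). Of the 10, only *Hp* and *Fabp4* were past 2-fold.

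The day 0 libraries show how much of the day 5 difference preceded differentiation. By the same rules, 204 of 10402 genes (1.96%) were lower and 114 (1.10%) were higher at day 0. Without the expression limit at day 0, 123 of the 390 genes lower at day 5 (31.5%) were also past 2-fold lower at day 0, 7 were higher and 260 were neither. Of the 140 higher genes, 43 (30.7%) were also higher, 4 were lower and 93 were neither. With an RPKM over 1 required at day 0 too, 78 of 213 lower genes (36.6%) were among the 204, and 32 of 81 higher genes (39.5%) were among the 114. The median day 0 log2 ratio was -0.52 in the lower, 0.57 in the higher and 0.00 in all genes. Across the 10869 genes, which are not independent of each other, the day 0 and day 5 ratios were correlated with Pearson's r of 0.49 and Spearman's rho of 0.48. The 4 libraries behind the 2 ratios are separate, but each line is the same at both days. Counted on the difference of the day 5 and day 0 ratios, 296 genes were lower and 172 higher, so the excess of lower genes was smaller than with the day 5 libraries alone.

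**Figure D4:**
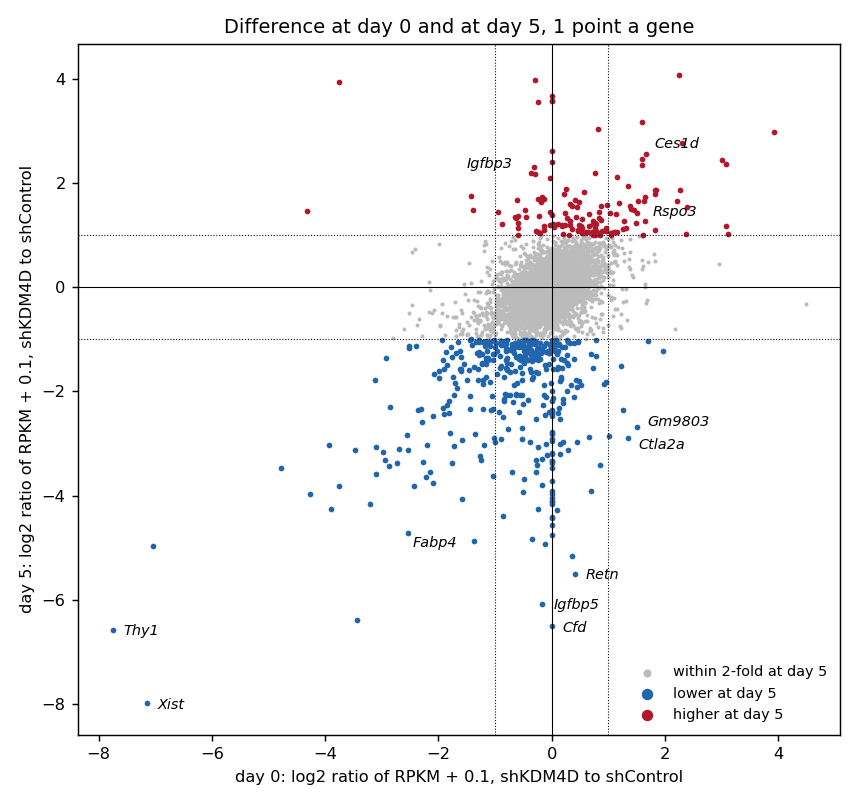
Log2 ratio of RPKM + 0.1 of shKDM4D to shControl cells at day 0 (x axis) and day 5 (y axis), 1 point a gene for all 10869 genes, coloured by the day 5 call, with dotted lines at 2-fold. Genes such as *Cfd*, *Retn* and *Igfbp5* lie near 0 at day 0 and far below at day 5, whereas *Xist* and *Thy1* are far below 0 at both days.

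A few genes were near silent in shKDM4D cells at both days. *Xist* (chromosome X, from 103460366 to 103483254), the long RNA that coats the inactive X chromosome, was at an RPKM of 20.4 and 29.2 in shControl cells and at 0.0456 and 0.0155 in shKDM4D cells at day 0 and day 5. Its log2 ratio at day 5, -7.99 (-8.12 to -7.78), was the lowest of all genes. In shNFIB and shMLL1 cells *Xist* was at 15.4 and 30.6 at day 5, so that shKDM4D cells were the only line near 0. *Thy1* (chromosome 9), a surface protein of mesenchymal stem cells, was at 25.01 and 22.6 in shControl cells and at 0.0171 and 0.139 in shKDM4D cells. It was also near 0 in shNFIB cells (0.0632 at day 5) but not in shMLL1 cells (11.1). Of the 10 mesenchymal markers *Dcn* was also lower, at 31.8 and 3.03 at day 5. The other 8 were within 2-fold, with *Pdgfra* at 70.8 and 50.5 and *Prrx1* at 79.2 and 85.4 in shControl and shKDM4D cells at day 5.

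After *Xist* had been seen, genes known to be active on the inactive X chromosome were looked up. *Eif2s3x*, a translation initiation factor, was at an RPKM of 97.1 and 93.7 in shControl cells and at 42.1 and 45.5 in shKDM4D cells at day 0 and day 5, a log2 ratio of -1.20 and -1.04. The histone demethylases *Kdm6a* (-0.83 and -0.44) and *Kdm5c* (-0.50 and -0.24) and the genes *Pbdc1* (-0.38 and -0.54) and *Utp14a* (-0.69 and -0.49) were below 0 at both days, with intervals that left out 0. *Ddx3x*, an RNA helicase of the same kind, was not (-0.04 and 0.06). Of genes looked up with an RPKM below 1 in shKDM4D cells, *5530601H04Rik* was below 0 at both days (-0.74 and -0.49), with intervals that left out 0. The interval of *Ftx* held 0 at day 0 (-0.05 and -0.43), and that of *Jpx* at day 5 (-0.73 and -0.15). The 351 expressed genes of the X chromosome had a median of 0.02 at day 5, close to that of all genes.

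The position of a gene also went with its ratio. Grouped by chromosome, a choice made after the data had been seen, the 535 genes of chromosome 10 had a median log2 ratio of -0.33 at day 5 and 86.2% of them were below 0. The 281 genes of chromosome 18 had a median of -0.26. Genes of chromosomes 2 (0.22), 1 (0.20), 15 (0.14) and 16 (0.14) were above 0. The day 0 libraries gave medians of -0.34, -0.32, 0.23, 0.25, 0.10 and 0.16 for the same 6 chromosomes. The medians of the other chromosomes lay between -0.07 and 0.06 at day 5. A median near 0 can hide a part of a chromosome. With the genes of chromosome 8 split into 4 groups by position, the last was at -0.22 at day 5 and -0.28 at day 0. The other groups lay between -0.04 and 0.08 at day 5. *Hp*, *Agt* and *Cox4i1* are in the last group.

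Within chromosome 10, 4 equal groups of genes by position had medians of -0.30, -0.36, -0.32 and -0.33 at day 5, so the difference ran along the whole chromosome. In shNFIB and shMLL1 cells the median of chromosome 10 relative to shControl cells was 0.04 and -0.10. These lines had medians away from 0 on other chromosomes, at both days. In shMLL1 cells chromosome 14 was at -0.25 at day 5 and -0.31 at day 0. In shNFIB cells chromosome 15 was at -0.18 and -0.30, and chromosome 16 at 0.25 and 0.23. These shifts are small beside a 2-fold difference and common to both days. *Rspo3* is on chromosome 10 and was higher against the direction of its neighbours, while *Cfd*, *Dcn* and *Lum* are on chromosome 10 too. When the median of its chromosome was subtracted from each gene, 368 genes were lower and 124 higher. What sets chromosomes apart in a line was not tested.

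**Figure D5:**
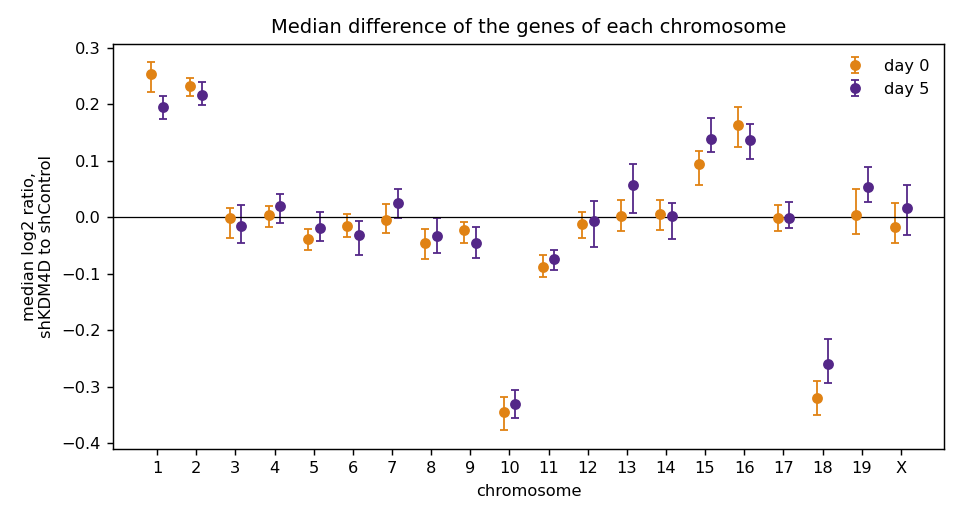
Median log2 ratio of shKDM4D to shControl cells (y axis) of the expressed genes of each chromosome (x axis) at day 0 and day 5, with bars for the 95% order-statistic interval of the median over genes, which are not replicates. Chromosomes 10 and 18 lie below and chromosomes 1, 2, 15 and 16 above the others at both days.

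The 2 other knockdown lines at day 5 are given beside these values, since they share the shControl library. The summed RPKM of the adipocyte markers was 1.96 in shNFIB and 4.68 in shMLL1 cells, against 27.7 in shKDM4D cells. Some genes that were lower in shKDM4D cells were not so in the other lines. *Aldh1a7*, an aldehyde dehydrogenase, was at 42.1 in shControl and 2.93 in shKDM4D cells, and at 25.9 with NFIB and 103 with MLL1 depleted. Its neighbour in the same family, *Aldh1a1*, was at 8.77, 2.49, 20.3 and 30.6 in the same order. Of the higher genes, *Rspo3* was at 124 in shKDM4D cells and at 42.0 and 37.7 in shNFIB and shMLL1 cells, close to the 39.4 of shControl cells. *Igfbp3* was at 0.0202 in shNFIB and 6.02 in shMLL1 cells, against 17.6 in shKDM4D and 3.77 in shControl cells. No comparison between the knockdown lines was tested.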

How the data were processed

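RNA was sequenced at day 0 and day 5 from 4 lines (shControl and the KDM4D, NFIB and MLL1 knockdowns), 1 library per condition. Reads were aligned by the authors with CLC Genomics Workbench to GRCm38 (mm10), and the deposited values are RPKM per gene and library. RPKM divides by exon length and mapped reads, so that a gene taking many reads lowers the others. A pair of ribosomal RNA-like genes took 3.14% and 3.22% of the reads in the compared libraries.

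Files were joined on gene symbol. A gene entered when either day 5 library (shControl or shKDM4D) had it above an RPKM of 1, and the difference was the ratio of RPKM + 0.1 on the log2 scale, which understates the change of low genes. Genes past 2-fold were called, with no p-value. Whole reads were recovered from the deposited RPKM values with the exon lengths of GENCODE (GRCm38). In the 8 libraries, between 96.2% and 96.5% of the values of up to 1000 reads lay within 0.02 of a whole number. Exact Clopper-Pearson intervals of 95% were taken on the reads of both libraries, given their sum. They cover counting error only, and reads are not independent molecules. Genes with no exon length have no interval.

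Genes, 51 gene lists and comparisons were chosen with earlier results of these data known. The named genes are *Kdm4d*, *Pparg*, *Cebpa*, *Cebpb* and *Fabp4*, the 15 largest rises and falls among genes with an RPKM of at least 10, the 4 largest differences per list at an RPKM of at least 5 and all genes of any list with up to 12 entries, and the 10 largest RPKM differences each way. Genes named outside this rule (*Klf15*, *Nr1h3*, *Cd36*, *Fasn*, *Cox7a1*, *Cox8b*, *Serping1*, *Cp*, *Orm2*, *Saa3*, *Ptx3*, *Serpina3f*, *Eif2s3x*, *Kdm5c*, *Pbdc1*, *Utp14a*, *Ddx3x*, *5530601H04Rik*, *Ftx*, *Jpx*, *Tom1l1* and *Trmt61a*) were chosen after their values were seen. Promoter sequences are from RefSeq (GRCm38.p6). Alternatives were other pseudocounts, filters and scalings, protein coding genes, intervals and the day 0 difference. Python 3.11.15, numpy 2.4.6, pandas 2.3.3, scipy 1.17.1 and matplotlib 3.10.9 were used, and the scripts were tested on simulated data.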

Additional observations from a re-analysis of the deposited data

Results flagged for a closer look

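Among genes with an RPKM of at least 5 in a day 5 library and of at least 1 in a day 0 library, 2 had a difference between the lines that turned around between the days, past 2-fold one way and then the other, with both counting intervals clear of 0. With 1 library a condition, the difference between the days was not tested. *Ctla2a*, which encodes an inhibitor of cysteine proteases, had an RPKM of 2.35 in shControl and 6.12 in shKDM4D cells at day 0, a log2 ratio of 1.34, and of 138 and 18.5 at day 5, a log2 ratio of -2.89. The day 5 ratio less the day 0 ratio was -4.24. In shNFIB and shMLL1 cells *Ctla2a* was at 33.4 and 93.2 at day 5. *Gm9803*, a gene model with a placeholder name on chromosome 10, was at 4.001 and 11.5 at day 0 (1.51) and at 17.0 and 2.55 at day 5 (-2.69), a change of -4.20. In shNFIB and shMLL1 cells it was at 16.7 and 15.9 at day 5.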

How the results depend on the processing

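Lower genes outnumbered higher genes under every setting tried for the day 5 comparison (other pseudocounts, filters and scalings, protein coding genes only, an interval that excludes no change, the day 0 difference subtracted, chromosome medians subtracted), but the counts followed the treatment of low values. A pseudocount of 1 left 226 lower and 56 higher genes, and a filter of RPKM over 5 left 167 and 46, while no filter gave 971 and 503. Genes past 2-fold in the same direction at both days fell from 123 lower and 43 higher to 36 and 14 with a pseudocount of 1 and to 43 and 19 with RPKM over 5. These settings for the genes of both days, and the subtraction of chromosome medians, were added after the data had been seen. Quantile normalization gave 347 lower and 177 higher genes, and median-of-ratios scaling moved ratios by 0.01 only. Of the 22 gene lists whose median was over 0.2 in size, 18 moved by less than 1.5 times under the 6 settings tried for them. The other 4 were brown and beige fat (-2.16 to 0.01), lipolysis (-0.84 to -0.50), fatty acid uptake (-0.52 to -0.20) and bone and cartilage (0.22 to 0.53). No called gene among those named by the rule above changed sign under the 4 settings tried for single genes. Genes named outside that rule, and *Ctla2a* and *Gm9803*, were not run under these settings. No replicate could be left out, as each condition is 1 library. No paired analysis was possible because each condition holds 1 library. Depth limits *Kdm4d* and other genes of a few reads.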

Other observations

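Most other gene lists held few genes past 2-fold at day 5. Of 6 expressed genes of brown and beige fat 3 were lower and 0 higher. Their median of -1.71 depended on the setting, as it was -0.67 with a pseudocount of 1, -0.53 after quantile normalization and 0.01 with an RPKM over 5. An RPKM over 5 left only *Slc25a20* (-0.20) and *Tbx1* (0.21), so the 3 lower genes dropped out. *Cox8b*, the lowest of them, is also counted in the respiratory chain list. Glycolysis had 1 lower and 0 higher gene of 19, with a median of -0.11 at day 5 and 0.49 at day 0. The lower gene was *Slc2a4* (3.66 and 0.386 at day 5, log2 ratio -2.95), which is also counted as an adipocyte marker. Circadian clock genes had 0 lower and 0 higher of 15 (median 0.39), and bone and cartilage genes 1 lower and 0 higher of 12 (median 0.40). Among 24 matrix proteases 2 were lower, one of them the stromelysin *Mmp3* (17.8 in shControl and 5.01 in shKDM4D cells, log2 ratio -1.81), and the median was -0.05. Smooth muscle genes had 2 lower of 16 (median -0.02), with the myosin light chain *Myl9* at 19.3 and 6.53 (-1.55), whereas *Acta2*, smooth muscle actin, was at 478 and 673 (0.49).

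Stress and growth lists lay close to the median of all genes. ER chaperones had 1 lower of 29 (median -0.07), which was the co-chaperone *Dnajb9* (35.2 and 17.1, -1.04). NRF2 targets had 1 lower of 33 (median 0.06), and the quinone reductase *Nqo1* was at 49.7 and 90.0 (0.85). The p53 targets and CDK inhibitors (21 genes, median -0.04), the tRNA synthetases (20 genes, median 0.09) and the genes of the MLL complexes and NFI factors (20 genes, median 0.15) held 0 lower and 0 higher genes. YAP targets had 0 lower and 2 higher of 22 (median 0.11), integrins and laminins 0 lower and 1 higher of 17 (median 0.10), immediate early genes 1 lower and 0 higher of 18 (median -0.19), and stem cell markers 2 lower and 1 higher of 17 (median 0.02).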
